A study of Caenorhabditis elegans with 2 samples.

Results

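Short RNAs of 22 nt that lie opposite to exons of Caenorhabditis elegans genes, nearly all of them protein-coding, were examined in 1 library of small RNAs carrying a 5′ monophosphate. The deposited list gives clusters of overlapping reads with their strand and the annotation on both strands. A cluster was taken when it was 22 nt wide on a chromosome, had an annotated exon on the other strand, and had no exon, non-coding RNA or transposon on its own strand. The rule found 1764 clusters with 2058 reads, out of 51569 clusters in the list, and used no comparison of read numbers. On their own strand 1369 of them (77.6%) had no annotated feature. Another gene lay on that strand for the rest: 258 (14.6%) were downstream of it, 111 (6.29%) in its promoter window and 26 (1.47%) in its intron. Whether those reads belong to transcripts of the neighbouring gene was not tested. The library was made with an Illumina small RNA protocol from TRIZOL-extracted RNA of whole worms of the strain fem-1. Its partner in the series, a library titled polyphosphatase from the same strain and source, was not analysed here. Loss of fem-1 feminises the germ line, so that oocytes form and sperm do not. The labels state neither stage nor culture temperature nor the number of worms. With 1 library there was no replicate and no test between conditions; intervals in parentheses are exact 95% intervals (Clopper-Pearson for shares, Poisson for counts), and they cover counting error only. In RNA of whole worms, fewer cells of a type and less RNA per cell cannot be told apart.

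In worms, RNA-dependent RNA polymerases copy messenger RNAs into secondary siRNAs of about this length, called 22G RNAs for their first base. They carry a 5′ triphosphate and are loaded by worm-specific Argonautes, among them CSR-1, which binds RNAs opposite to germline-expressed genes, and the WAGO proteins, which silence transposons, pseudogenes and selected genes. Dicer products carry a monophosphate and can have a similar length. The library was made to catch monophosphate ends, and the first base and 5′ end of the reads were not analysed here, so the clusters are described by width, strand and position alone.

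The tissue label was checked on marker genes. Sense reads lay on all 10 oocyte and yolk markers (10292 reads), and the 6 yolk protein genes among them held 10066 of these. Sense reads also lay on all 3 germline granule markers (88 reads) and on all 6 muscle markers (270 reads). Of 156 collagen genes taken as epidermis markers, 45 had sense reads (676 reads). Of 35 sperm markers, 1 had a read, and it had 1. The list held 1417144 reads in all, of which 1412353 were on chromosomes.

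The 22 nt clusters stood out by strand. Sense and antisense exon clusters of that width numbered 3321 and 1764, so that 34.7% were antisense (33.4 to 36.0). One nucleotide shorter the share was 25.2% (24 to 26.5; 1170 antisense clusters), and one longer it was 14.9% (13.8 to 16.1; 541 clusters). At 18 to 20 nt the share lay between 12% and 15.4%, and at 24 to 26 nt between 2.82% and 4.93%. Sense clusters fell steadily in number from 3989 at 18 nt to 2775 at 26 nt, without a step at 22 nt. The peak in share lay in the antisense count.

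**Figure D1:**
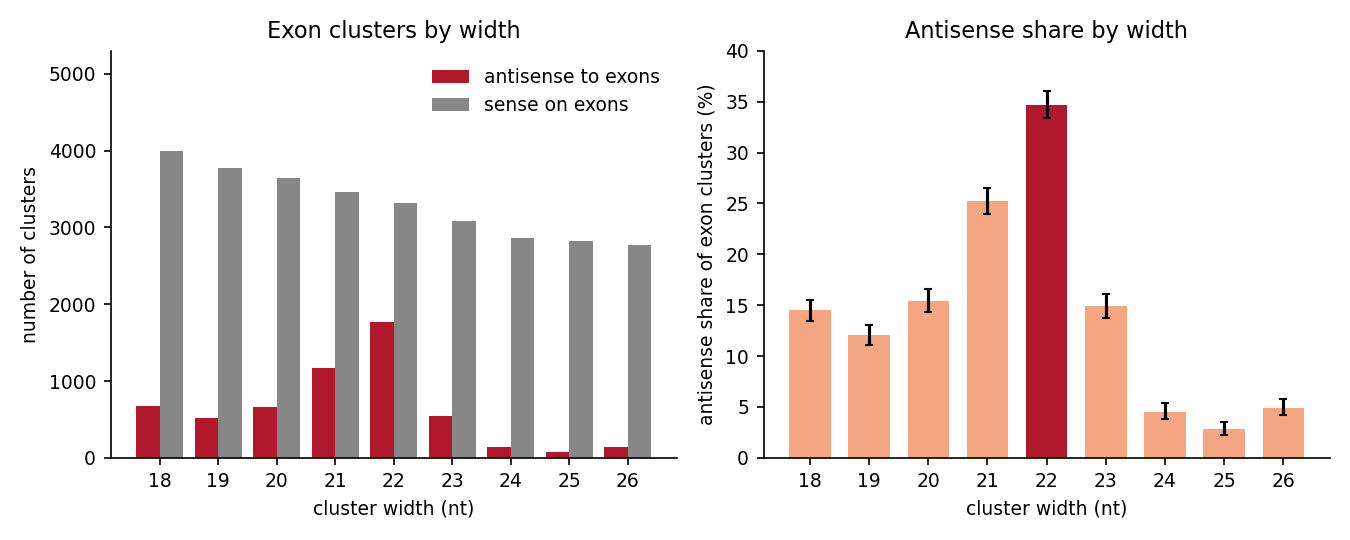
Left, number of clusters on exons in sense (grey) and antisense (red) at each cluster width in nt. Right, antisense share in percent with exact 95% intervals for counting error; the highest bar is 22 nt at 34.7%, followed by 21 nt at 25.2%.

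Few of the clusters differed from the genome. Edits to the genome sequence were listed for 1.36% of the antisense clusters of 22 nt (0.874 to 2.02), against 24.1% of those of 18 nt (20.9 to 27.5) and 1.84% of the sense clusters of 22 nt (1.41 to 2.35). The list also places clusters on a sequence named markov, which the labels do not explain. That sequence carried 24 clusters of 22 nt, beside 6015 of that width on chromosomes, and 870 of 18 nt beside 5576. The value by which the list scores how unique a placement is reached 44, its highest among these clusters, in 1639 (92.9%), and it was 8 or less in 42.

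Most clusters were single events. One read made up 1578 of them (89.5%, 87.9 to 90.9), 2 reads 143 and 3 reads 25. Only 18 clusters had 4 or more reads, and the highest had 23 and 18. A single distinct sequence was present in 1686 (95.6%). Antisense clusters of 21 and 23 nt were alike, with 1 read in 92.3% (90.6 to 93.8) and 85.2% (81.9 to 88.1). Overlapping clusters are joined in the list, so staggered reads form wider clusters and the width rule itself favours clusters of few reads. A cluster with 1 read gives presence at a position but no level.

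Along the transcript the clusters lay mostly opposite to coding sequence, and the 3′ UTR took a larger share of them than of sense clusters of the same width. Coding sequence was annotated opposite to 1595 clusters (90.4%, 88.9 to 91.8), against 94.3% (93.5 to 95.1) of sense clusters. The 3′ UTR was named for 186 (10.5%, 9.15 to 12.1) against 6.96% in sense (6.11 to 7.87), and the 5′ UTR for 59 (3.34%, 2.56 to 4.29) against 2.80% (2.27 to 3.42). Antisense clusters of 21 and 23 nt had the 3′ UTR in 9.06% (7.48 to 10.9) and 13.7% (10.9 to 16.9). Both intervals overlapped that at 22 nt, so the 3′ UTR share was not particular to this width. The start codon lay opposite to 25 clusters and the stop codon to 30. Splice sites were rarely crossed: a 3′ splice site was named for 19 (1.08%, 0.650 to 1.68) and a 5′ splice site for 8. At 21 nt, 3′ splice sites were named for 2.74% of antisense clusters (1.88 to 3.84), and in sense at 22 nt for 1.87% (1.43 to 2.39).

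Exon 1 held 284 of the clusters (16.1%, 14.4 to 17.9), counting the lowest exon number that the list names over the transcripts of a gene. In sense at 22 nt it held 10.7% (9.63 to 11.8), and in antisense at 21 and 23 nt 12.6% (10.8 to 14.7) and 12.8% (10.1 to 15.9). These sets do not name the same genes. The number and length of exons per gene were not used, and their part in these shares was not tested. Exon 2 held the most, 328 (18.6%, 16.8 to 20.5). At each exon number above 1 the antisense and sense shares had overlapping intervals, and in both directions the median was exon 4. The highest exon number reached was 26 in antisense and 51 in sense.

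**Figure D2:**
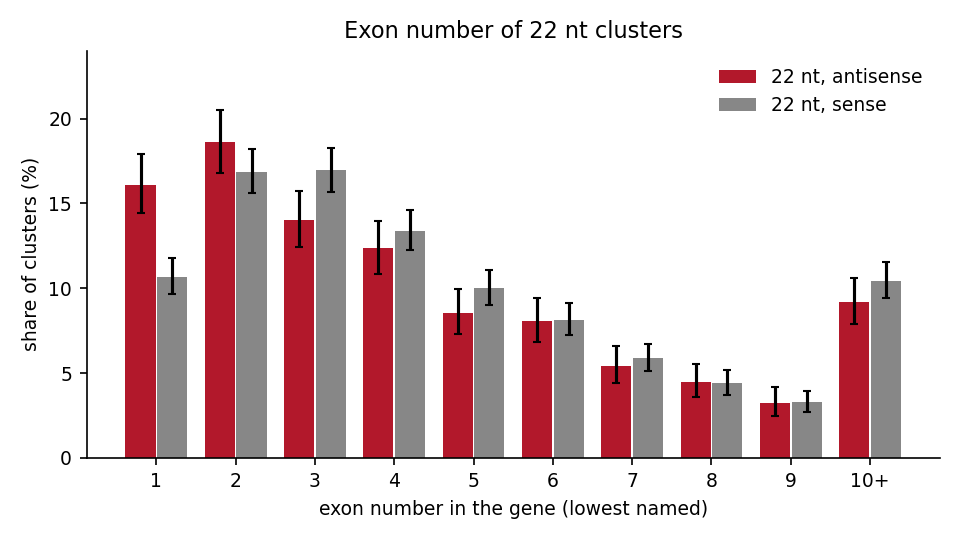
Share of 22 nt clusters in percent by the exon number of the gene, antisense in red and sense in grey, with exact 95% intervals for counting error. Exon 1 holds 16.1% of antisense and 10.7% of sense clusters; at the other exon numbers the intervals overlap.

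All 6 nuclear chromosomes carried such clusters, and 1 lay on the mitochondrial genome. Chromosome III had 380, II 371, I 351, IV 290, V 248 and X 123. Per megabase this was 27.6 on III and 24.3 on II, against 11.9 on V and 6.96 on X. Sense clusters of 22 nt had the same lowest pair, with 24.3 per megabase on V and 14.4 on X. The X chromosome held 6.97% of the antisense clusters (5.83 to 8.26) and 7.68% of the sense clusters (6.80 to 8.64). It is poor in germline-expressed genes, and whether that bears on these shares was not tested.

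Relative to sense clusters on the same chromosome, X differed between widths. At 22 nt the antisense share on X was 32.5% (27.8 to 37.5), close to chromosome I with 32.7% and V with 32.8%, and below II with 38.9% (35.8 to 42.1). At 21 nt the share on X was 14.3% (10.6 to 18.7), whereas the autosomes had 24.3% to 29.1%. At 23 nt X had 9.77% (6.48 to 14) and the autosomes 12.9% to 19.1%. The share on X was thus the lowest of the 6 chromosomes at the neighbouring widths, where X held 44 and 26 antisense clusters. At 23 nt its interval overlapped those of I, III, IV and V.

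**Figure D3:**
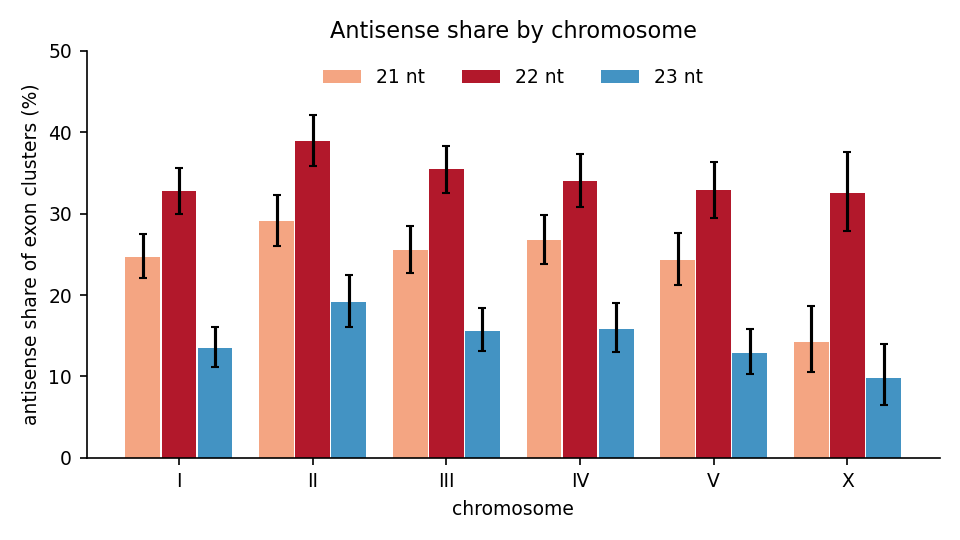
Antisense share of exon clusters in percent on each nuclear chromosome for widths of 21, 22 and 23 nt, with exact 95% intervals for counting error. At 22 nt X stands at 32.5%, level with I and V; at 21 nt it stands at 14.3%, under all autosomes.

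Within chromosomes a larger share of the antisense clusters than of sense clusters lay in the outer parts. With each nuclear chromosome cut into 3 equal parts up to the last position in the list, both outer parts together held 64% of the antisense clusters (61.7 to 66.3) and 53.8% of sense clusters of 22 nt (52.1 to 55.5). The outer parts make up most of the length of a chromosome, so 64% is not in itself an excess near the ends. The share was higher in antisense on each chromosome, with 77.2% against 58.0% on X, 71.2% against 57.0% on II and 65.5% against 53.1% on I. On III, IV and V the antisense value lay between 58.4% and 59.3%, and the sense value between 51.2% and 53.5%. On each of these chromosomes the antisense and sense intervals overlapped. The antisense clusters of 21 nt (63.0%, 60.2 to 65.8) and 23 nt (66.5%, 62.3 to 70.5) had like values, so antisense clusters of all 3 widths had this placement.

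The clusters named 1367 genes, of which 1097 had 1 cluster, 181 had 2, 63 had 3 and 26 had 4 or more. Over all 20259 genes compared, 6.75% had such a cluster. The 10 genes with the most reads took 5.52% of the reads. Neighbouring clusters of a gene began a median of 436 nt apart (quartiles 149 and 1172), less than for sense clusters of 22 nt (median 857, over 1007 pairs of neighbours) or antisense clusters of 21 nt (762, over 169 pairs) and near that of antisense clusters of 23 nt (491, over 52 pairs). Neighbours started within 100 nt of each other in 65 pairs (16.1%), against 9.63% in sense. Clusters that overlap are joined in the list, so the smallest distance was 23 nt.

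Both genes that led by reads had 1 dominant site. K09H11.11 had 24 reads (15.4 to 35.7), of which 23 lay in 1 cluster of 8 distinct sequences in exon 2 (chromosome V, 5754928 to 5754949), and 1 sense read. F39E9.10, a long non-coding RNA in the WBcel235 gene table, had 18 reads (10.7 to 28.4), all in 1 cluster in exon 2 (II, 3303242 to 3303263), and no sense read. The uniqueness value was 27 for the first of these clusters and 39 for the second, both below 42, the median over antisense clusters of 18 to 26 nt. With clusters of 42 or more alone, K09H11.11 kept 1 read and F39E9.10 none, and without edited clusters K09H11.11 also kept 1, since 1 edit is listed for its leading cluster. At F39E9.10 most antisense reads had other widths, 73 of 131 in clusters wider than 26 nt. Any sense clusters of F39E9.10 that the list annotates as non-coding were not counted.

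A further single site was opposite to exon 11 of klp-20, a subunit of the kinesin that carries cargo along cilia (III, 227421 to 227442), with 8 reads of 6 distinct sequences, 8 edits and a uniqueness value of 31. klp-20 kept no read without edited clusters, and none with uniqueness values of 42 or more. The MATH and BTB domain gene bath-24 had 6 reads in 1 unedited cluster with the highest uniqueness value (II, 2045233 to 2045254, exon 2), and 1 sense read.

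Other genes carried several clusters along their length. sqst-1, which encodes the selective autophagy receptor known in mammals as p62, had 7 clusters with 8 reads in 3 exons, the leading one opposite to exon 1 (IV, 12034377 to 12034398), beside 17 sense reads. csp-1, a caspase, had 7 clusters of 1 read each with exon numbers 1 to 4 on chromosome II (first cluster 13601454 to 13601475), and 1 sense read. gadr-5 had 6 clusters with 10 reads in exons 12 and 13 (leading cluster I, 13987723 to 13987744), and 2 sense reads. fkb-8, which encodes a protein of the FK506-binding immunophilin type, had 5 clusters with 12 reads (leading cluster I, 12917223 to 12917244) and no sense read.

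The F-box gene fbxb-97 had 5 clusters with 12 reads, all opposite to exon 1 (leading cluster II, 1847601 to 1847622), and 1 sense read. Reads in it with a uniqueness value of 42 or more numbered 5, and F-box genes form a large family of similar sequences. bath-45 had 5 clusters with 8 reads in exons 2 and 7 (leading cluster II, 13123264 to 13123285) and 1 sense read. got-1.2, an aspartate aminotransferase, had 5 clusters with 7 reads (leading cluster X, 16791642 to 16791663), 1 sense read and 53 antisense reads of all widths. nkcc-1, a sodium-potassium-chloride cotransporter, had 5 clusters with 6 reads (leading cluster IV, 14112587 to 14112608) and 12 sense reads. Y37H9A.2 and Y48G1BM.8, pseudogenes in the WBcel235 table, had 6 clusters of 1 read each, with 1 and 0 sense reads.

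**Figure D4:**
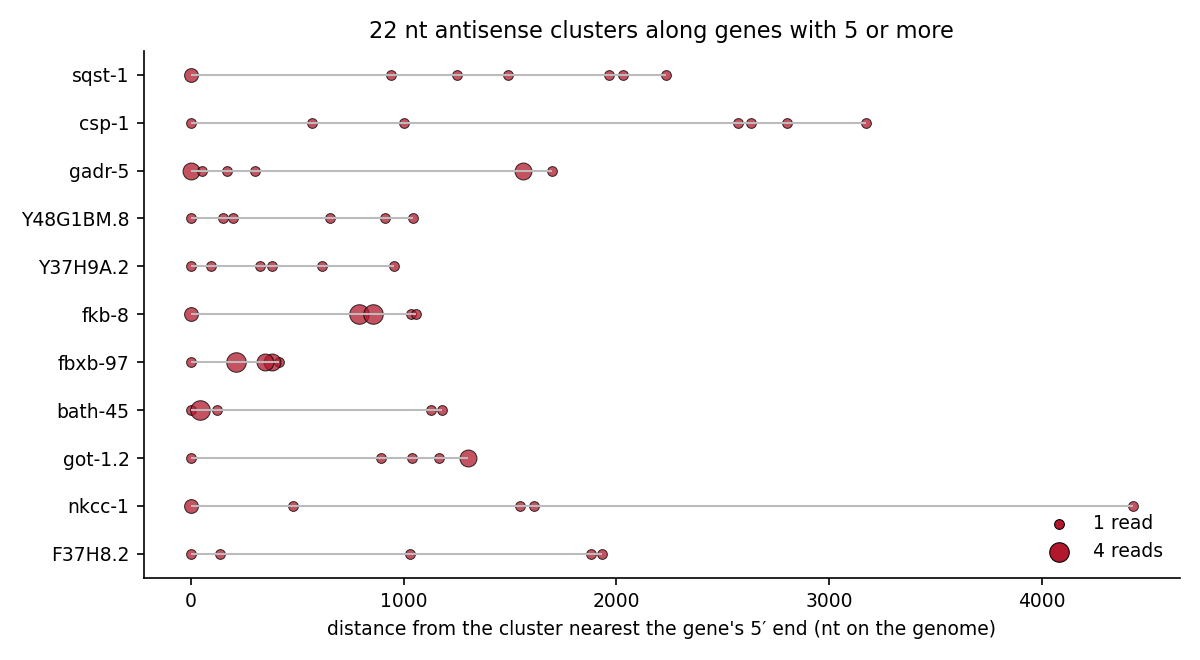
Clusters of 22 nt along the 11 genes with 5 or more of them, by distance in nt from the cluster nearest the gene's 5′ end; the area of a point grows with its reads. Clusters of sqst-1 and csp-1 spread over the gene, while those of fbxb-97 lie in exon 1.

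Sense reads of the same genes are short RNAs in the direction of the messenger RNA; the messenger RNA itself was not measured. At least 1 sense exon read was present for 1030 of the 1367 genes (75.3%, 73.0 to 77.6), and over all genes compared the value was 35.6%. The median was 4 sense reads (quartiles 1 and 11), against 0 over all genes. In the other direction, the share of genes with a 22 nt antisense cluster was 2.58% (2.32 to 2.87) among the 13037 genes without a sense read. It was 8.49% (7.54 to 9.51) with 1 to 2 sense reads, 14.6% (13.3 to 16) with 3 to 9 and 24.7% (22.2 to 27.4) with 10 to 29. At 30 to 98 sense reads it was 29.4% (24.3 to 34.9), and at 100 or more 48.9% (34.1 to 63.9; 47 genes). The share of genes with a 21 nt antisense cluster also rose at each step. It went from 1.51% without a sense read to 27.7% at 100 or more, so a rise with sense reads was not particular to 22 nt. Longer genes offer more positions in both directions; gene length was not used, and its part in these shares was not tested.

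Sense reads did not order evenly with the number of clusters. Among genes with any sense read, the median was 6 sense reads for genes with 1 cluster, 8 with 2, 10.5 with 3 and 2.5 for the 20 of 26 genes with 4 or more. No sense read was listed for 6 of the 26. Antisense reads of all widths outnumbered sense reads in 501 of all 1367 genes (36.6%). Antisense clusters of 21 nt were present in 69.2% of the 26 genes (48.2 to 85.7) and of 23 nt in 61.5% (40.6 to 79.8), against 21.6% (19.2 to 24.2) and 10.3% (8.56 to 12.3) of genes with 1 cluster. Over all 1367 genes, clusters of 22 nt held 42.3% of 4875 antisense reads and clusters wider than 26 nt 20.1%, and 636 genes (46.5%) had no antisense cluster of another width. Each of these genes was taken for having a 22 nt antisense cluster, so the share of that width is raised by the choice of genes.

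Among the genes with a 22 nt antisense cluster, the 10 with the most sense reads had 1 to 3 such clusters each. eef-1A.1, a translation elongation factor, had 716 sense reads and 1 antisense read, in an edited cluster of 22 nt (III, 6970734 to 6970755, exon 3) that neither stricter rule on uniqueness or edits kept. The chaperone gene hsp-90 had 325 sense reads, the ribosomal stalk gene rplp-0 307, the polyubiquitin gene ubq-1 293 and the small heat shock gene sip-1 182, with 1 cluster of 1 read each. tbb-2, a beta tubulin of the germ line and embryo, had 181 sense reads and 3 clusters with 4 reads, 1 of them with a uniqueness value of 8. The poly(A)-binding protein gene pab-1 (173 sense reads) and the ubiquitin ligase gene eel-1 (146) had 2 clusters each, and rpl-5 (156) and rack-1 (151), both of the ribosome, had 1 each.

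Direct overlap of the strands was limited. A cluster on the opposite strand covered at least 1 base of 257 of the antisense clusters (14.6%, 13.0 to 16.3), against 17.6% at 21 nt (15.5 to 19.9) and 13.7% at 23 nt (10.9 to 16.9). For sense clusters of 22 nt the share was 2.11% (1.65 to 2.66), and at each width from 18 to 26 nt antisense clusters were fewer than sense clusters. The 234 genes whose 22 nt antisense clusters lay over a sense cluster had a median of 12 sense reads, and the other genes with 22 nt antisense clusters a median of 2. Such an overlap requires sense reads, so this difference is partly built into the choice of genes. For the 185 pairs with a partner of 18 to 26 nt, the distance by which the 3′ end of the antisense cluster ran past the 5′ end of its partner was tallied. From -10 to 10 nt each distance had 2 to 8 pairs, and an overhang of 2 nt, the mark of a Dicer duplex, had 5. Antisense clusters of 26 nt, with 21 such pairs, had 9 at an overhang of 3 nt.

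Gene lists showed where the clusters were and were not. The lists were chosen with earlier results of these data known, and shares are read against the 6.75% of all genes with a cluster and the 35.6% with sense reads. Several lists of cell division and germline genes lay above the 6.75%, whereas eggshell genes, expressed in oocytes, had no cluster. Most genes of these lists had sense reads, and genes with sense reads held clusters more often. The 6.75% is therefore not a matched comparison, and counts restricted to genes with more sense reads follow below. Of 18 kinesin genes, motors that move along microtubules, 9 had clusters and 13 had sense reads, and with uniqueness values of 42 or more 7 had clusters. klp-7, a microtubule-depolymerising kinesin, had 4 clusters with 4 reads (first cluster III, 10808886 to 10808907) and 69 sense reads. klp-18, needed for the meiotic spindle, had 3 clusters and 21 sense reads. klp-11, the partner of klp-20 in cilia, had 3 clusters with 4 reads and no sense read.

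Of 44 kinetochore and spindle genes 20 had clusters (45.5%), and 42 had sense reads with a median of 10.5 over the list. The CLASP gene cls-2, which stabilises spindle microtubules, had 4 clusters and 30 sense reads, and the kinetochore gene hcp-1 had 3 and 50. The checkpoint kinase gene bub-1, hcp-2, the condensin gene hcp-6 and the INCENP gene icp-1 had 2 clusters each. Another 14 genes of the list had 1 cluster. Of 13 tubulin genes, 3 had clusters.

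Part of the genes of small RNA pathways had clusters themselves. Of 33 P granule and germline Argonaute genes 12 had clusters (36.4%) and 29 had sense reads. prg-1, the Piwi protein that binds piRNAs, had 3 clusters with 4 reads (leading cluster I, 7586289 to 7586310, exon 6) and 25 sense reads; the cluster in exon 2 has a uniqueness value of 8, and the genome holds a closely similar copy, prg-2. nrde-2, a factor of nuclear RNAi, had 3 clusters and 7 sense reads. csr-1, wago-4 and hrde-1, Argonautes that bind 22G RNAs, had 1 cluster each. Of 29 enzymes and cofactors of these pathways 9 had clusters (31.0%), among them the RNA-dependent RNA polymerases ego-1 and rrf-3, the helicase gene drh-3, and mut-7 and mut-16, which act in siRNA amplification. Oocyte and embryo RNA-binding protein genes had clusters in 9 of 31 (29%), and puf-5, a repressor of translation in oocytes, had 2.

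Some gene groups with many sense reads had no such cluster. The 6 yolk protein genes, which the intestine expresses for the oocytes, had 353 to 4468 sense reads each, no 22 nt antisense cluster and 1 antisense read of any width, on vit-6. The 14 eggshell and egg activation genes, expressed in oocytes, had 6 to 349 sense reads and no such cluster. Antisense reads of other widths were listed for 8 of the 14, 21 reads in all, of which the chitin-binding gene cbd-1, with 349 sense reads, had 6. Of 20 muscle structure genes, 18 had sense reads and 1 had a cluster, unc-60, a cofilin gene, while unc-54, the main body-wall myosin, had 137 sense reads and none. Among genes with 10 or more sense reads, clusters were present in 26.5% overall (24.2 to 28.9; 379 of 1431). The corresponding counts were 0 of 6 for yolk, 0 of 12 for eggshell, 0 of 16 for cuticle collagen and 1 of 13 for muscle genes, against 15 of 25 for kinetochore and spindle genes, 6 of 7 for kinesins, 8 of 16 for P granule and Argonaute genes and 14 of 57 for cytosolic ribosomal protein genes. Oocyte and embryo RNA-binding protein genes had 8 of 22, small RNA enzymes and cofactors 5 of 7 and tubulins 3 of 4. Targets of the Argonaute ERGO-1 had 3 of 11, histone genes 1 of 10 and C-type lectin genes 1 of 4. Genes of RNAi-dependent or mutator-dependent silencing had 1 of 3. F-box and nuclear hormone receptor genes had 0 of 2 each, and MATH and BATH domain genes 0 of 1. A count of 0 among so few genes does not show absence of such RNAs.

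**Figure D5:**
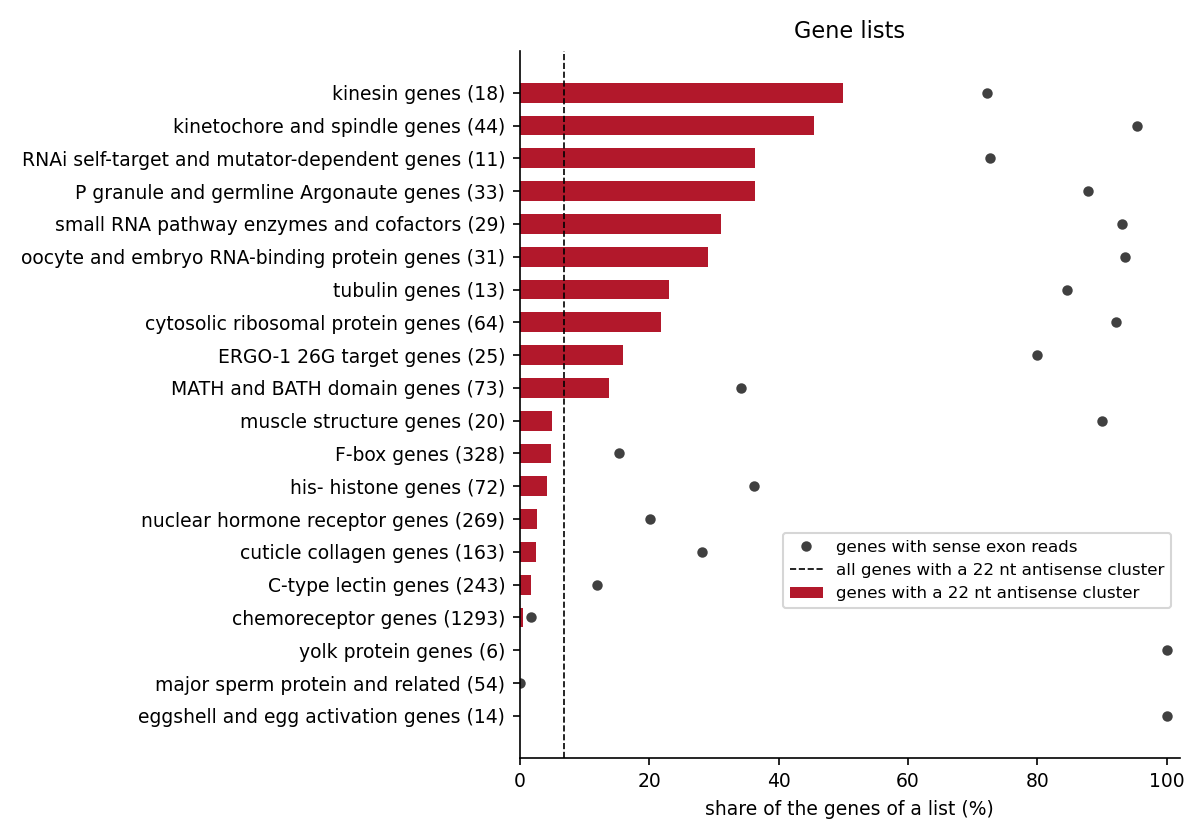
Share in percent of the genes of each list (number of genes in parentheses) with a 22 nt antisense cluster (red bars) and with sense exon reads (dark points); the dashed line marks 6.75%, the share over all genes. Kinesin and spindle genes have the longest bars, while yolk and eggshell genes have sense reads on every gene and no cluster.

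Large gene families differed in their share of genes with clusters. Clusters were present for 6 of 1293 chemoreceptor genes (0.464%), 4 of 243 C-type lectin genes (1.65%), 7 of 269 nuclear hormone receptor genes (2.6%) and 4 of 163 cuticle collagen genes (2.45%), and for none of 54 major sperm protein and related genes, which had no sense reads. The collagen gene col-71 had 2 clusters with 6 reads in exon 3 (leading cluster II, 3500533 to 3500554) and 2 sense reads; 4 of the 6 reads had uniqueness values of 42 or more. F-box genes had clusters in 16 of 328 (4.88%). Besides fbxb-97, fbxa-120 and fbxb-14 had 3 each and no sense read. MATH and BATH domain genes had them in 10 of 73 (13.7%), bath-20 with 3 clusters and 1 sense read. Of 72 histone genes 3 had clusters, led by his-24, a linker histone on X, with 3 clusters, 17 sense reads and a uniqueness value of 19 at the lowest; 2 of its 4 reads had values of 42 or more.

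Targets of the small RNA pathways formed 2 lists. Of 11 listed genes known for RNAi-dependent or mutator-dependent silencing (2 more names of the list were not found), 4 had clusters (36.4%), namely bath-45 with 5, F37D6.3 with 4, E01G4.5 with 3 and Y47H10A.5 with 2. F37D6.3 had 6 reads in its clusters, no sense read and 41 antisense reads of all widths, 28 of them in clusters wider than 26 nt. Of 25 targets of ERGO-1, the Argonaute of 26G RNAs in oocytes and embryos, 4 had clusters (16%), with 8 reads out of 1179 antisense reads of all widths on the list. E01G4.5 led this list too, with 5 reads at 22 nt, 29 at 26 nt and 33 in wider clusters.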

How the data were processed

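The authors' deposited list holds whole-number read counts per cluster of 1 library, without normalization, and per the file's own attributes the distinct sequences, edits, width, placement uniqueness and annotation on both strands. Counts of conversion events are a separate deposited column. A deposited score column repeats the cluster's entropy and was not used. Its name shortens the title of the monophosphate library and of no other, and on that ground it was taken for that sample. The submitters' processing notes name Bowtie2 2.1.0; for the genome build, annotation release, trimming and read filters, the sources used here are silent (not given). Positions are as deposited. Reads of 18 to 26 nt are stated in its name; the library's full depth is unknown.

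Genes and exon numbers were read from the annotation of the strand opposite to a cluster, and for sense clusters of its own strand. Sense clusters with a non-coding RNA or transposon on their own strand were left out. Such annotation opposite to an antisense cluster was allowed, and 29 of the 1764 had it. Overlap of at least 1 nt counted, and reads of a cluster naming several genes (5 clusters) counted for each. Gene names and types came from the WBcel235 table, which held 1340 of the 1367 genes; its coordinates were not used. The 20259 genes compared are its protein-coding genes and every gene with sense or antisense exon reads in the list. Intervals at the 95% level were Clopper-Pearson for shares and Poisson for counts (Python 3.11.15, SciPy 1.17.1). PCR reads are not independent molecules where no molecular identifiers mark them. The class rule, the exon parser and the overhangs were checked on simulated clusters. Members and gene lists were chosen with earlier results of these data known. Named were the 10 genes with the most reads, with the most clusters and with the most sense reads (ties, such as those at 7 reads and at 5 clusters, broken by reads, clusters, then name), and list members among the leading 50 by reads or with 3 or more clusters. Other names in the lists and the pseudogene and sid-1 values below were chosen after values were seen.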

Additional observations from a re-analysis of the deposited data

Results flagged for a closer look

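The deposited counts of conversion events were used only in the stricter rule on edits. They hold 8 events in the cluster opposite to exon 11 of klp-20, above the limit of 3 counts that a count of 0 allows. The cluster has 8 reads and 8 edits; and 2 of the 1764 clusters have any conversion event.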

How the results depend on the processing

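The antisense share, the share on X, the share in exon 1 and the number of genes were recomputed under stricter rules. So were the share of genes with sense reads and the share with an opposite cluster. The rules were a uniqueness value of at least 42, no edit or conversion event (without edited clusters), and no non-coding or repeat annotation in antisense. A further rule left out the 10 genes with the most reads. Shares stayed within their counting intervals and the number of genes within 1.5 times, at 1318 to 1357. The antisense share ranged from 34.1% to 35.5%, and the share in exon 1 with the highest exon number was 14.6%. Requiring 15 nt of overlap lowered the share with an opposite cluster from 14.6% to 6.97%, and requiring 2 or more reads left 186 of 1764 clusters; both follow from the stricter rule. Among the named genes, K09H11.11, F39E9.10, fbxb-97, klp-20, eef-1A.1, col-71 and his-24 lost reads as given above; with uniqueness of at least 42, nkcc-1 kept 5 of 6 reads (also without edited clusters), and tbb-2 and prg-1 kept 3 of 4 each. The share in the outer parts of the chromosomes, whose alternatives were added after seeing the data, was 63.1% to 64.2%. No paired analysis was possible because the series has 1 library per group. Depth limits every single gene: 1005 of the 1367 genes had 1 read.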

Other observations

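Pseudogenes of the WBcel235 table were named by 35 of the 1367 genes with 22 nt antisense clusters (2.56%, 1.79 to 3.54), by 20 of 1005 genes at 21 nt (1.99%, 1.22 to 3.06), by 18 of 492 at 23 nt (3.66%, 2.18 to 5.72), and by 11 of 2328 genes with sense clusters of 22 nt (0.473%, 0.236 to 0.844). Of all 1921 pseudogenes in that table, 1.82% had such a cluster (1.27 to 2.52), beside 6.75% of all genes compared. Pseudogenes made up 6 of the 26 genes with 4 or more clusters (23.1%, 8.97 to 43.6) and 21 of the 1097 genes with 1 cluster (1.91%, 1.19 to 2.91). Of the 35, 20 had no sense read. Sense clusters annotated as non-coding on their own strand were left out by the rule, so sense reads of pseudogenes can be missing from these values. How far this lowered the sense share was not tested. Y46H3C.6 had 4 clusters with 7 reads, no sense read and 58 antisense reads of all widths, and F37H8.2 had 5 clusters, 4 sense reads and 29 antisense reads.

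sid-1, which encodes the channel that imports double-stranded RNA, had 4 clusters with 5 reads inside exon 6. They began 41, 70 and 94 nt after the first (V, 5125361 to 5125382), and the gene had 4 sense reads and 8 antisense reads in all.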
